A study of Sus scrofa with 16 samples.

Results

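Expression of 4 genes of the circadian clock and its output, DBP, PER1, CRY2 and RORA, was followed in 2 skeletal muscles of 8 Iberian pigs, a fat Mediterranean breed. The genes were taken by name, as all probe sets whose single gene symbol in the platform annotation was one of these, which gave 5 probe sets out of 24123 and 4 genes out of 6765 with a symbol of their own. Each animal gave 1 Affymetrix array of the psoas major, a muscle of the loin, and 1 of the diaphragm, the main breathing muscle. All animals were 211 days old at slaughter. Under 20% feed restriction were 4 animals, the males numbered 2 and 3 and the females 5 and 8. On the high feeding level were the other 4, the males 1 and 4 and the females 6 and 7. Per the labels' protocols, all pigs ate 1 pelleted diet in a pair of daily meals before restriction started. The hour of slaughter, the time since the last meal, the start of restriction and any castration of the males were not stated in the labels. Clock transcripts vary with the hour, and whether the groups were sampled at like hours was not tested.

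The circadian clock is a feedback loop of transcription that runs in most cells. A pair of activators, BMAL1 (gene ARNTL) and CLOCK, turn on the Period and Cryptochrome genes, whose proteins return to the nucleus and repress those activators. In an accessory loop, ROR receptors activate ARNTL and REV-ERB receptors repress it. The same activators drive output factors such as DBP, which binds D-box elements in its target genes, while NFIL3 represses through the same elements. In skeletal muscle of mice the clock times part of the handling of glucose and fatty acids, and feeding time can shift clocks outside the brain.

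All 4 genes were measured on every array well enough to be tested, each through 1 probe set. A probe set was tested if its log2 value was at or above 4 on at least 4 of the 16 arrays, which 11467 did. PER1 had another probe set, which lay between 2.15 and 2.17 on all 16 arrays and was not tested. Values are log2 expression values as deposited, and levels of different genes are not set against each other because probes differ in their response. In whole tissue, fewer cells of a type and less RNA per cell cannot be told apart. Of 12 defining markers of skeletal muscle, 10 were on the array and lay between 11.8 and 15.4 in both muscles. Hepatocyte markers, in contrast, differed widely among the diaphragm arrays, where the mean log2 level of 7 tested markers lay between 3.64 and 7.93 in restricted animals and between 5.48 and 7.39 in high-fed animals. In psoas that mean lay between 3.26 and 3.78 in restricted animals and between 3.13 and 3.52 in high-fed animals. ALB, the hepatocyte gene of serum albumin, was below 4 on all 8 psoas arrays and between 4.07 and 9.84 in diaphragm.

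DBP, a PAR-bZIP transcription factor and the output gene of the set, lay higher in restricted psoas than in high-fed psoas with no overlap. Its log2 values in psoas were 7.76, 7.83, 8.19 and 8.23 in restricted animals 2, 3, 5 and 8, against 7.41, 6.21, 7.70 and 7.32 in high-fed animals 1, 4, 6 and 7. The lowest restricted array lay 0.06 above the highest high-fed array, and animal 4 lay far below the others. In diaphragm DBP had 8.0, 7.91, 8.14 and 8.47 in restricted animals 2, 3, 5 and 8, against 8.02, 7.18, 7.75 and 8.05 in high-fed animals 1, 4, 6 and 7. There the groups overlapped, with high-fed animals 1 and 7 inside the restricted range.

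The feeding difference of DBP was 0.84 ± 0.25 in psoas (log2, SE, n = 4 against 4), which is 1.79-fold, with a limma adjusted p of 0.325. In diaphragm it was 0.38 ± 0.19, with a limma adjusted p of 0.560. Over the animal means it was 0.61 ± 0.20, a limma adjusted p of 0.313, and the means of the 4 restricted animals did not overlap those of the 4 high-fed ones. DBP did not pass the test in either muscle. Groups of psoas arrays without overlap and with restricted animals higher were found for 2.42% of all tested probe sets, and for 2.66% over the animal means. Animal 4 carried much of the size, since without it the difference was 0.57 in psoas, 0.22 in diaphragm and 0.39 over the animal means.

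PER1, a Period repressor of the core loop that is also induced quickly by hormones and other signals, spread over the widest range of the 4 genes among the animals. In psoas it had 9.41, 9.17, 9.44 and 10.13 in restricted animals 2, 3, 5 and 8, against 9.48, 7.50, 8.70 and 9.06 in high-fed animals 1, 4, 6 and 7. In diaphragm it had 8.83, 9.08, 8.94 and 9.88 in restricted animals 2, 3, 5 and 8, against 9.02, 7.61, 8.31 and 8.64 in high-fed animals 1, 4, 6 and 7. In both muscles restricted animal 8 was highest and high-fed animal 4 lowest, and high-fed animal 1 lay among the restricted animals.

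The feeding difference of PER1 was 0.85 ± 0.39 in psoas (limma adjusted p = 0.470) and 0.79 ± 0.33 in diaphragm (limma adjusted p = 0.511). Over the animal means it was 0.82 ± 0.35, or 1.77-fold, with a 95% confidence interval of 0.02 to 1.62 and a limma adjusted p of 0.386. It was 0.92 in females and 0.72 in males, each from 2 restricted and 2 high-fed animals. The animal means of the restricted males were 9.12 and 9.12. Those of the high-fed males were 9.25 for animal 1 and 7.56 for animal 4, so the male value rested on animal 4. Without animal 4 the feeding difference was 0.47 in psoas, 0.53 in diaphragm and 0.50 over the animal means, and without animal 1 it was 1.26 in psoas.

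CRY2, a Cryptochrome that acts with the Period proteins as a repressor, differed less. In psoas it had 7.27, 6.82, 6.83 and 7.07 in restricted animals 2, 3, 5 and 8, against 6.93, 6.61, 6.60 and 6.96 in high-fed animals 1, 4, 6 and 7. In diaphragm it had 7.19, 6.88, 6.99 and 7.23 in restricted animals 2, 3, 5 and 8, against 6.88, 6.32, 6.89 and 6.33 in high-fed animals 1, 4, 6 and 7. The psoas groups overlapped, and the diaphragm groups met at one edge, where restricted animal 3 lay just below high-fed animals 1 and 6. The feeding difference of CRY2 was 0.22 ± 0.15 in psoas (limma adjusted p = 0.608), 0.47 ± 0.18 in diaphragm (limma adjusted p = 0.500) and 0.34 ± 0.13 over the animal means (limma adjusted p = 0.356). Without animal 2 the psoas difference was 0.12.

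RORA, a nuclear receptor that activates ARNTL in the accessory loop, had no common direction with feeding. In psoas it had 6.23, 6.09, 5.93 and 5.50 in restricted animals 2, 3, 5 and 8, against 5.22, 5.54, 5.86 and 6.22 in high-fed animals 1, 4, 6 and 7. In diaphragm it had 5.80, 5.38, 5.69 and 4.87 in restricted animals 2, 3, 5 and 8, against 5.52, 5.18, 5.50 and 5.86 in high-fed animals 1, 4, 6 and 7. Animal 8, highest for DBP and PER1, had the lowest animal mean of RORA. The feeding difference of RORA was 0.23 ± 0.25 in psoas (limma adjusted p = 0.752), -0.08 ± 0.23 in diaphragm (limma adjusted p = 0.934) and 0.07 ± 0.22 over the animal means (limma adjusted p = 0.916). Over the animal means it was -0.36 in females and 0.51 in males, each from 2 restricted and 2 high-fed animals, and the difference between these was not tested. The psoas difference was 0.05 without animal 1 and 0.42 without animal 8.

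**Figure D1:**
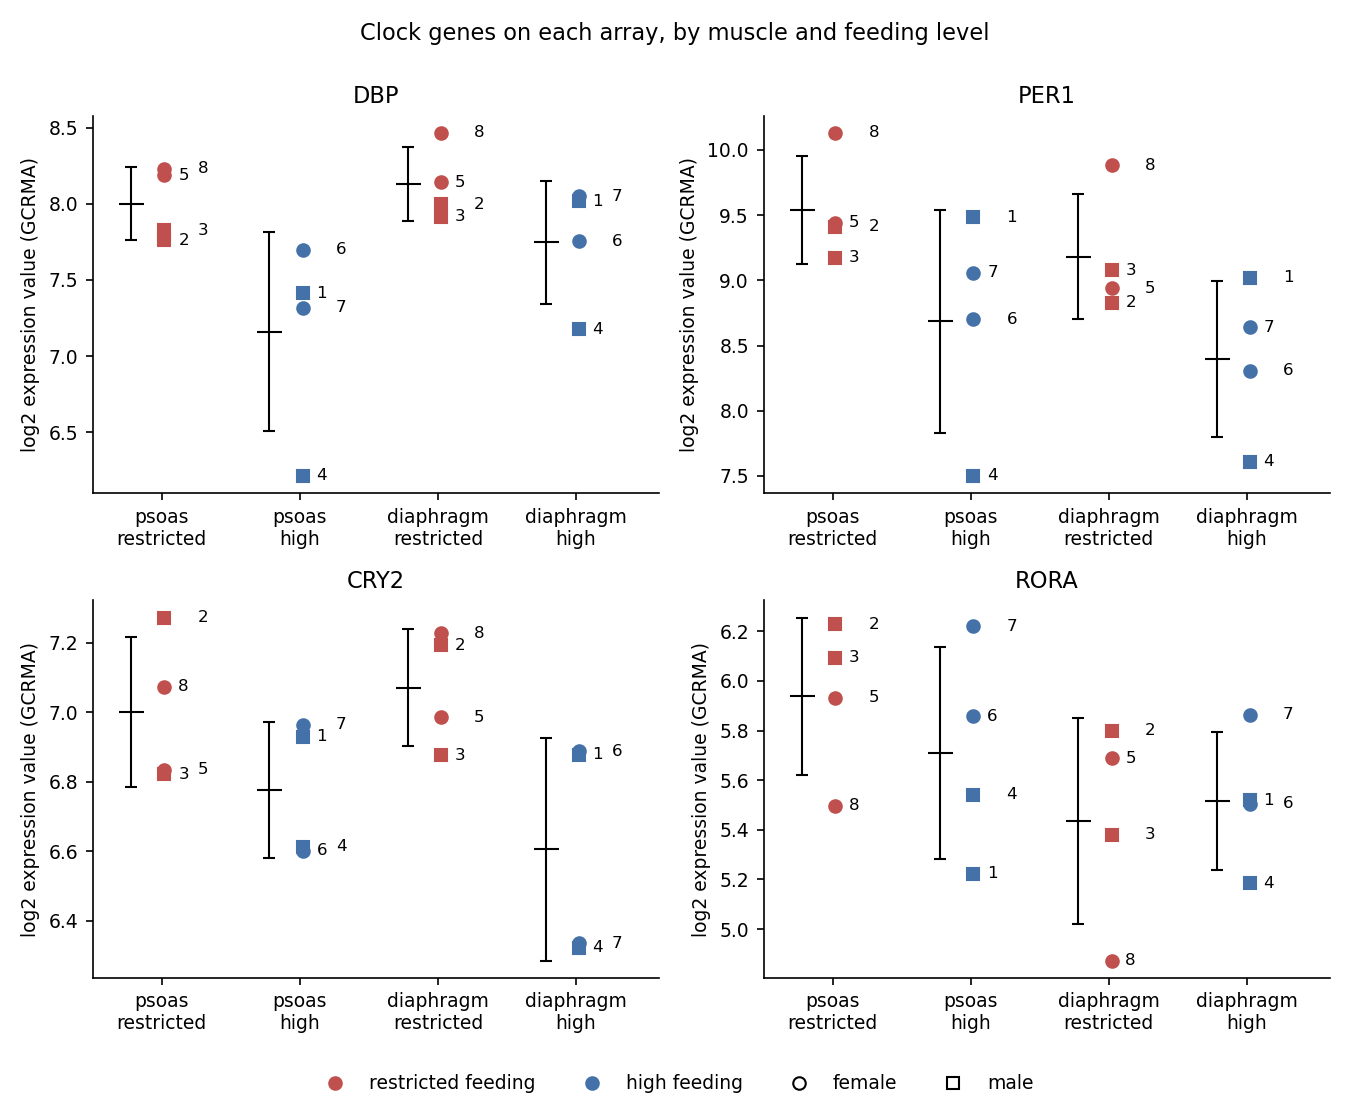
Log2 expression values (vertical axis) of DBP, PER1, CRY2 and RORA on each of the 16 arrays, by muscle and feeding level, with points numbered by animal and shaped by sex, and with bars for the mean ± SD of 4 animals. DBP in psoas is the panel section in which all 4 restricted animals lie above all 4 high-fed ones, and animal 4 is lowest for DBP and PER1 in both muscles.

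No probe set of the array was called for feeding at an adjusted p under 0.05. This held for 0% of 11467 probe sets in limma for the animal means, for psoas and for diaphragm. At an unadjusted p under 0.05 there were 1451 (12.7%) over the animal means, 1291 (11.3%) in psoas and 1101 (9.6%) in diaphragm, and limma with trended and robust variances likewise called 0 in all 3. Of the 4 genes DBP, PER1, CRY2 and RORA, the first 3 had an unadjusted limma p under 0.05 over the animal means, at 0.0152, 0.0462 and 0.0329. The median difference of the 4 genes was 0.48 over the animal means, 0.53 in psoas and 0.42 in diaphragm. The median over all 4571 tested genes was -0.05, -0.05 and -0.04 in the same 3 comparisons. The 4 genes were chosen with earlier results of these data known. Over the animal means, the median was 0.29 for 4 tested genes listed for the core and accessory loop. It was -0.06 for 9 tested genes that modify clock proteins and -0.05 for 16 tested clock-controlled output genes.

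**Figure D2:**
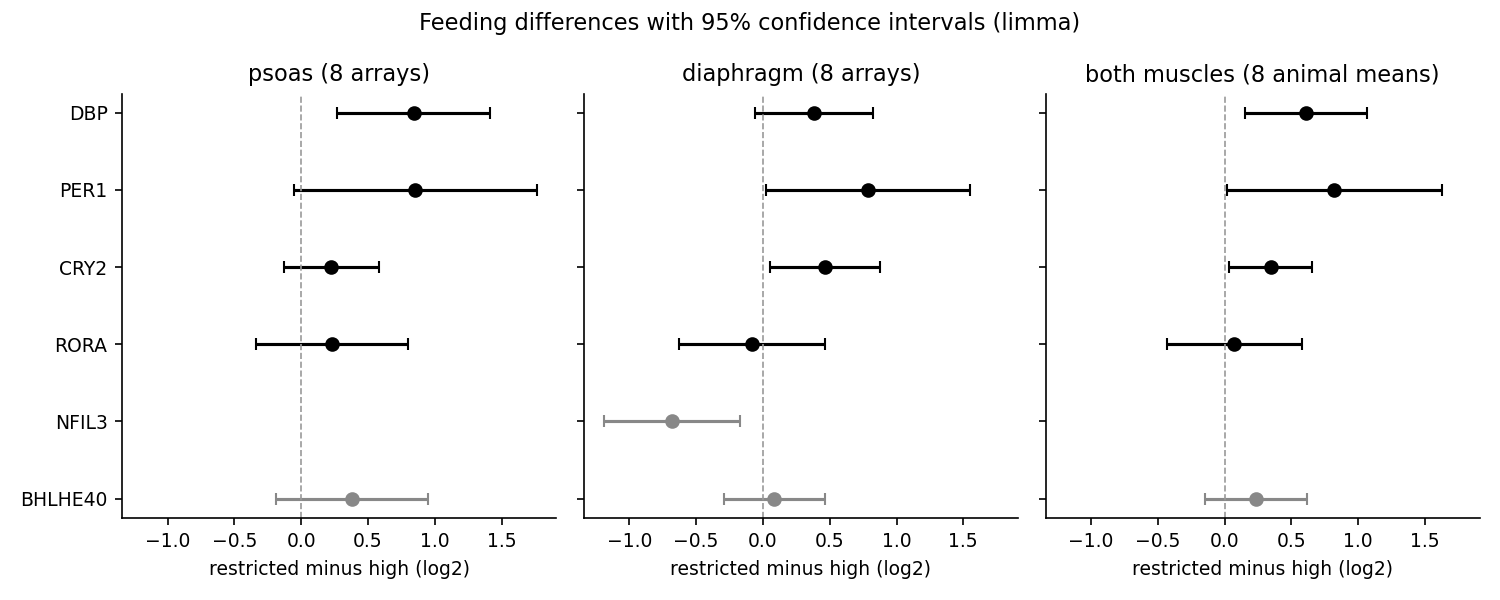
Restricted minus high differences (horizontal axis, log2) with 95% confidence intervals from limma for DBP, PER1, CRY2 and RORA (black) and for NFIL3 and BHLHE40 (grey), in psoas, in diaphragm and over the animal means. DBP, PER1, CRY2 and the brighter probe set of BHLHE40 have positive differences in all 3 panels, while RORA is negative in diaphragm. NFIL3 is drawn for diaphragm alone because it lay below 4 in restricted psoas, and none has an adjusted p under 0.05.

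NFIL3, the repressor that competes with DBP for D-box elements, lay on the other side of 0. In psoas it had 3.43, 3.71, 3.5 and 3.69 in restricted animals 2, 3, 5 and 8, against 6.0, 5.89, 3.69 and 4.85 in high-fed animals 1, 4, 6 and 7. In diaphragm it had 4.28, 4.76, 4.71 and 4.48 in restricted animals 2, 3, 5 and 8, against 4.91, 5.66, 5.51 and 4.86 in high-fed animals 1, 4, 6 and 7. The diaphragm groups did not overlap, with restricted animals lower, as for 2.69% of tested probe sets, while in psoas high-fed animal 6 lay among the restricted animals. The feeding difference of NFIL3 in diaphragm was -0.68 ± 0.22 (limma adjusted p = 0.488). All 4 restricted psoas arrays lay below 4 and 3 of the 4 high-fed ones above it, with measured means of 3.58 in restricted and 5.11 in high-fed psoas (limma adjusted p = 0.321). With the restricted values set to 4 and the high-fed mean as measured, NFIL3 was 2.15-fold higher in high-fed than in restricted psoas. High-fed animal 6 entered that mean at 3.69, below 4, so the fold is no strict bound. No difference over the animal means is given, since their psoas part has only this floored value.

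Of the 19 symbols in the list of the core and accessory loop, 5 were on the array under a single symbol. Besides PER1, CRY2 and RORA these were ARNTL, the activator, and BHLHE40, a repressor of the activators. ARNTL was at or above 4 on 3 arrays only, high-fed animal 4 in both muscles at 4.63 in psoas and 4.32 in diaphragm, and high-fed animal 7 in psoas at 4.82, and was not tested. BHLHE40 through its brighter probe set had 6.28, 6.30, 6.70 and 6.63 in restricted psoas (animals 2, 3, 5 and 8), against 5.25, 6.52, 6.17 and 6.43 in high-fed psoas (animals 1, 4, 6 and 7), and these groups overlapped. Its dimmer probe set had 4.86, 5.08, 4.61 and 5.34 in restricted psoas, against 3.97, 4.34, 3.82 and 4.37 in high-fed psoas, with no overlap and restricted animals higher, as for 2.42% of tested probe sets. That difference was 0.85 ± 0.20 with a limma adjusted p of 0.321, against 0.38 ± 0.25 with a limma adjusted p of 0.585 for the brighter probe set. In diaphragm both probe sets overlapped between the groups. The brighter one had 5.91, 5.88, 6.30 and 6.96 in restricted animals 2, 3, 5 and 8, against 5.85, 6.11, 6.39 and 6.38 in high-fed animals 1, 4, 6 and 7, a difference of 0.08 ± 0.16 (limma adjusted p = 0.889). The dimmer one lay below 4 on all 4 restricted diaphragm arrays and on 3 of the 4 high-fed ones.

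Whether the feeding difference depended on the muscle was tested on the psoas minus diaphragm differences of the 8 animals. For DBP the feeding difference in psoas minus that in diaphragm was 0.46 ± 0.19, with an unadjusted limma p of 0.0411 and an adjusted p of 0.807. For PER1 the same quantity was 0.07 ± 0.18 (limma adjusted p = 0.965), with a 95% confidence interval of -0.34 to 0.48. For CRY2 it was -0.24 ± 0.20 (limma adjusted p = 0.868), and -0.04 without animal 7, and for RORA 0.31 ± 0.20 (limma adjusted p = 0.847), and 0.13 without animal 1. No probe set was called in this test (0%), and 696 (6.07%) had an unadjusted limma p under 0.05.

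Signs of RNA quality were uneven between the feeding groups of diaphragm. The 3′ minus 5′ log2 difference of the actin control probe sets lay between 4.07 and 4.33 on the diaphragm arrays of animals 1, 2, 3 and 5, which are 3 restricted animals and 1 high-fed animal. On those of animals 4, 6, 7 and 8, which are 1 restricted and 3 high-fed animals, it lay between 3.35 and 3.49. Each level held a single array of one feeding group, too few for a difference within it. With the actin difference as a covariate over all 8 diaphragm arrays, the feeding difference was 0.29 for DBP, 0.72 for PER1 and 0.38 for CRY2. Over 14 alternative settings RORA in diaphragm lay between -0.29 and 0.15. The same 3′ minus 5′ difference in diaphragm averaged -0.03 in restricted and -0.08 in high-fed animals for gapdh. For ef1a it averaged 1.03 and 0.85. Hepatocyte markers in diaphragm had a median feeding difference of -1.24 over 7 tested genes, 1 of them positive, and none had an unadjusted limma p under 0.05. Immune markers there had a median of -0.54 over 7 tested genes, 0 of them positive, 3 with an unadjusted limma p under 0.05 and none called. Over all tested probe sets in diaphragm, 47% had a positive difference and 9.6% an unadjusted limma p under 0.05. The part of either list in the diaphragm values of the clock genes was not tested.

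Between the muscles, PER1 and RORA lay higher in psoas and DBP lay higher in diaphragm, in 7 of 8 animals each. PER1 averaged 9.11 ± 0.77 in psoas and 8.79 ± 0.65 in diaphragm (SD, n = 8 each). RORA averaged 5.82 ± 0.37 in psoas and 5.48 ± 0.33 in diaphragm. DBP averaged 7.58 ± 0.64 in psoas and 7.94 ± 0.37 in diaphragm. Its psoas minus diaphragm difference averaged -0.13 over the restricted animals and -0.59 over the high-fed animals. The exceptions were high-fed animal 4 for PER1, high-fed animal 1 for RORA and restricted animal 5 for DBP. CRY2, at 6.89 ± 0.23 in psoas and 6.84 ± 0.34 in diaphragm, was higher in psoas in 4 animals and lower in the other 4.

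With the 16 arrays taken as independent and sex and feeding level as covariates, none of the 4 genes was called, while 27% of all tested probe sets were. The psoas minus diaphragm difference was 0.32 ± 0.26 for PER1 (limma adjusted p = 0.368), 0.35 ± 0.17 for RORA (limma adjusted p = 0.149), -0.36 ± 0.17 for DBP (limma adjusted p = 0.124) and 0.05 ± 0.12 for CRY2 (limma adjusted p = 0.779). The labels number the animals, so both arrays of an animal form a pair, and with the animal as a block limma called PER1, RORA and DBP. The blocked standard error was 0.09 for PER1 (adjusted p = 0.0157), 0.10 for RORA (adjusted p = 0.0253) and 0.12 for DBP (adjusted p = 0.0396), while CRY2 had an adjusted p of 0.725. The blocked fit called 33.5% of all tested probe sets, and 42.4% had the same sign in at least 7 of 8 animals, so that such calls and signs were common on this array. The brighter BHLHE40 probe set had 0.06 ± 0.15 (limma adjusted p = 0.782), while 7 of the 8 diaphragm values of its dimmer one lay below 4. With those 7 set to 4, the dimmer probe set was 1.44-fold higher in psoas. Psoas values of animals 1 and 6, 3.97 and 3.82, also lay below 4 and entered as measured, so the fold is no strict bound. Measured means were 4.55 in psoas and 3.82 in diaphragm (limma adjusted p = 0.0034).

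Between the same muscles, where 27% of all tested probe sets were called, 6 of 9 slow fibre genes were called lower in psoas and 5 of 8 fast fibre genes were called higher in psoas. Markers of other cells were called lower in psoas for 7 of 7 endothelial and 6 of 7 immune genes. The same held for 5 of 7 fibroblast and 4 of 6 adipocyte genes, and 1 fibroblast gene was called higher. Of 13 hepatocyte genes on the array, 7 were tested, and these were called lower in psoas. Among them, ALB, APOC3, FGB, HP and TF were at or above 4 on 0 psoas arrays. They passed the filter through diaphragm alone, which largely fixed their direction. Of 6 smooth muscle and pericyte genes, 1 was called lower and 1 higher, CNN1 at 2.08 (limma adjusted p = 4.8e-06). Of 2 nerve and Schwann cell genes, 1 was called lower. The part of these lists in the differences of the clock genes was not tested.

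**Figure D3:**
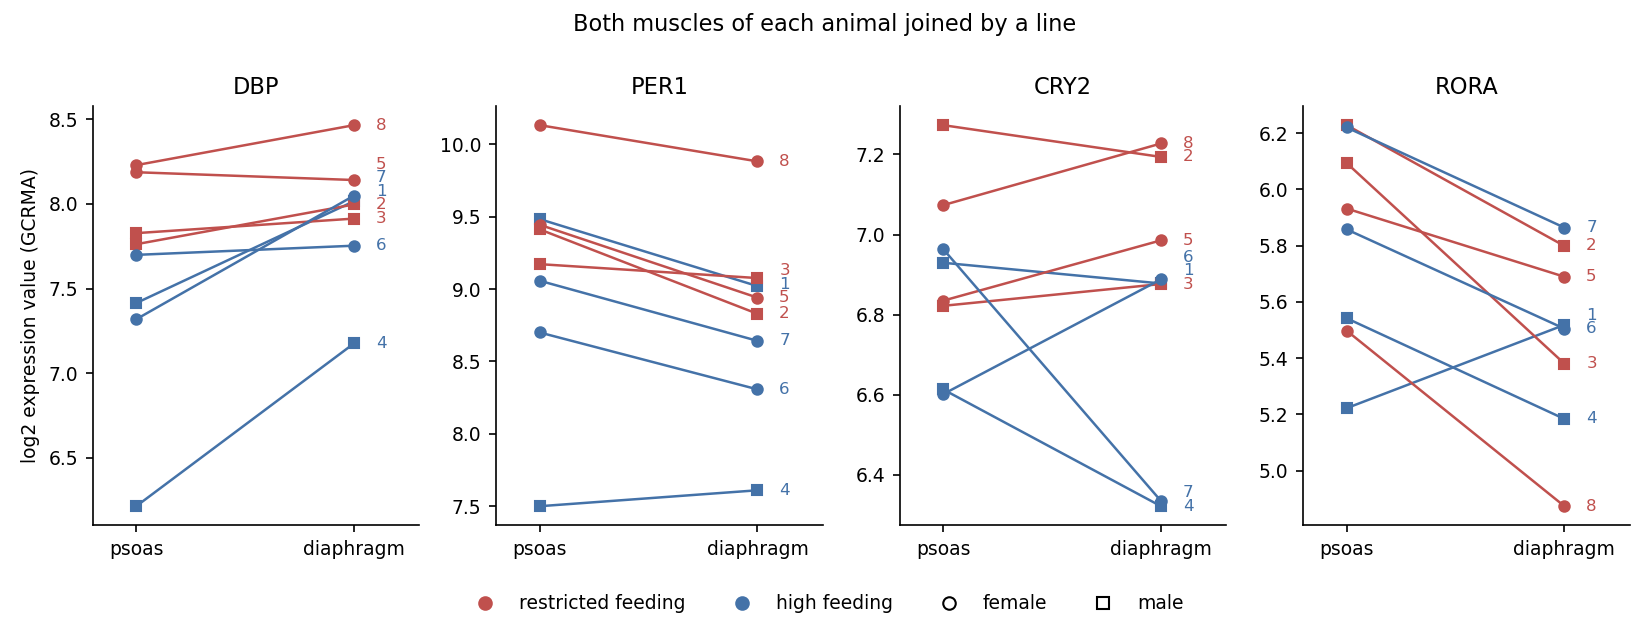
Log2 expression values (vertical axis) of DBP, PER1, CRY2 and RORA in psoas and diaphragm, with both arrays of an animal joined by a line, numbered by animal, coloured by feeding level and shaped by sex. Lines fall towards diaphragm for PER1 and RORA in 7 of 8 animals, climb for DBP in 7 of 8, and cross for CRY2.

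None of the 4 genes was called between the sexes. Over the animal means, DBP averaged 7.98 ± 0.33 in females and 7.54 ± 0.57 in males (SD, n = 4 each), a difference of 0.44 ± 0.20 (SE) with a limma adjusted p of 0.567. PER1 averaged 9.14 ± 0.64 in females and 8.76 ± 0.81 in males, with a limma adjusted p of 0.817. Without animal 4 the difference was 0.22 for DBP and 0.06 for PER1, and without animal 1 it was 0.63 for DBP and 0.73 for PER1. The difference was 0.00 ± 0.13 for CRY2 and 0.06 ± 0.22 for RORA. In this comparison 0.183% of tested probe sets were called.

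DBP and PER1 were correlated across the animals. In diaphragm their Pearson r over 8 animals was 0.940, with an exact two-sided permutation p of 0.00298 that was 0.0357 after Benjamini-Hochberg adjustment over the 12 pairs of genes in both muscles. Spearman's rho was 0.643, with an exact permutation p of 0.0962 (adjusted p = 0.385). In psoas r was 0.882, with an exact permutation p of 0.0113 (adjusted p = 0.0676) and a rho of 0.690, whose exact permutation p was 0.0694. After sex and feeding effects were subtracted, r was 0.937 in diaphragm (exact permutation p = 6.2e-04, adjusted p = 0.00744) and 0.803 in psoas (exact permutation p = 0.0319, adjusted p = 0.191). The relation rested largely on the end animals, high-fed animal 4 and restricted animal 8. Without the 2 animals farthest from the median of DBP, r was 0.596 in diaphragm and 0.218 in psoas, and without animal 4 alone it was 0.880 in diaphragm and 0.561 in psoas. The adjusted p in diaphragm missed the threshold when animal 2, 4, 5, 6 or 8 was left out, at 0.0682 to 0.295 by the exact permutation test, with r between 0.880 and 0.946.

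PER1 values were also correlated between the muscles of an animal. Its psoas and diaphragm values had a Pearson r of 0.960 over 8 animals (exact permutation p = 6.4e-04, adjusted p over 4 genes = 0.00258) and a rho of 0.857 (exact permutation p = 0.0107, adjusted p = 0.0429). Without the 2 animals farthest from the median, r was 0.839, with an adjusted exact permutation p of 0.0861 over 6 animals, and after subtraction of sex and feeding effects it was 0.931. For DBP this r was 0.875 (exact permutation p = 0.0128, adjusted p = 0.0255), but it rested on the end animals and was 0.168 without the 2 farthest. Its rho was 0.595 (exact permutation p = 0.132). For RORA r was 0.629 and for CRY2 0.536, with adjusted exact permutation p of 0.125 and 0.170.

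The other pairs did not pass the adjustment. PER1 and CRY2 had r of 0.704 in psoas and 0.725 in diaphragm, with exact permutation p of 0.0493 and 0.0367 and adjusted p of 0.148 and 0.147. DBP and CRY2 had r of 0.453 in psoas and 0.660 in diaphragm, where the exact permutation p was 0.0754 (adjusted p = 0.181). RORA had r between -0.24 and 0.25 with each of the other 3 genes in both muscles. In the test of all pairs, 1 of 12 passed.

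**Figure D4:**
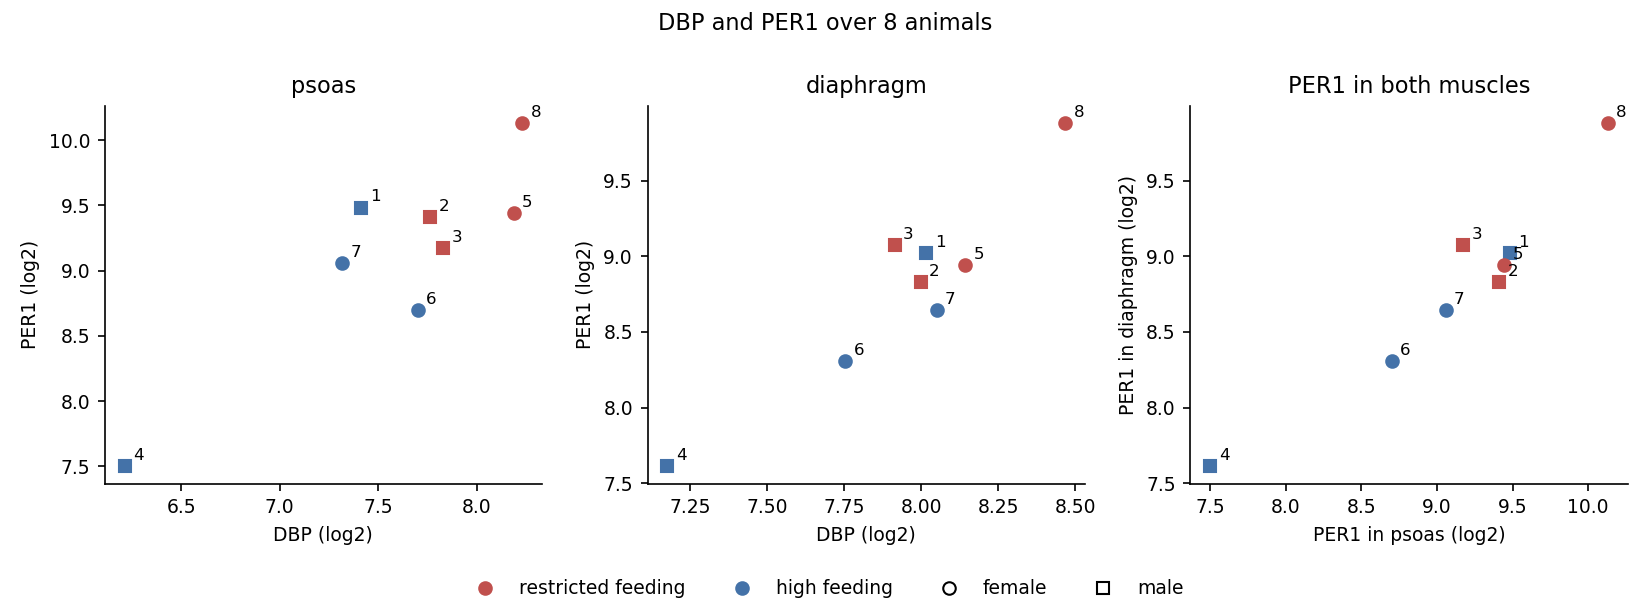
PER1 against DBP (log2 values) over 8 animals in psoas and in diaphragm, and PER1 in diaphragm against PER1 in psoas, with points numbered by animal, coloured by feeding level and shaped by sex. Animal 4 at the low end and animal 8 at the high end stand apart in all 3 panels, with Pearson r of 0.882, 0.940 and 0.960.

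Correlations of NFIL3 were chosen after its feeding values were seen and are given as a description, for diaphragm alone, since most of its psoas values lay below 4. Its Pearson r over 8 animals was -0.81 with DBP and -0.80 with PER1. Without the 2 farthest animals it was -0.66 with both, and after subtraction of sex and feeding effects it was -0.86 with DBP and -0.65 with PER1.

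**Figure D5:**
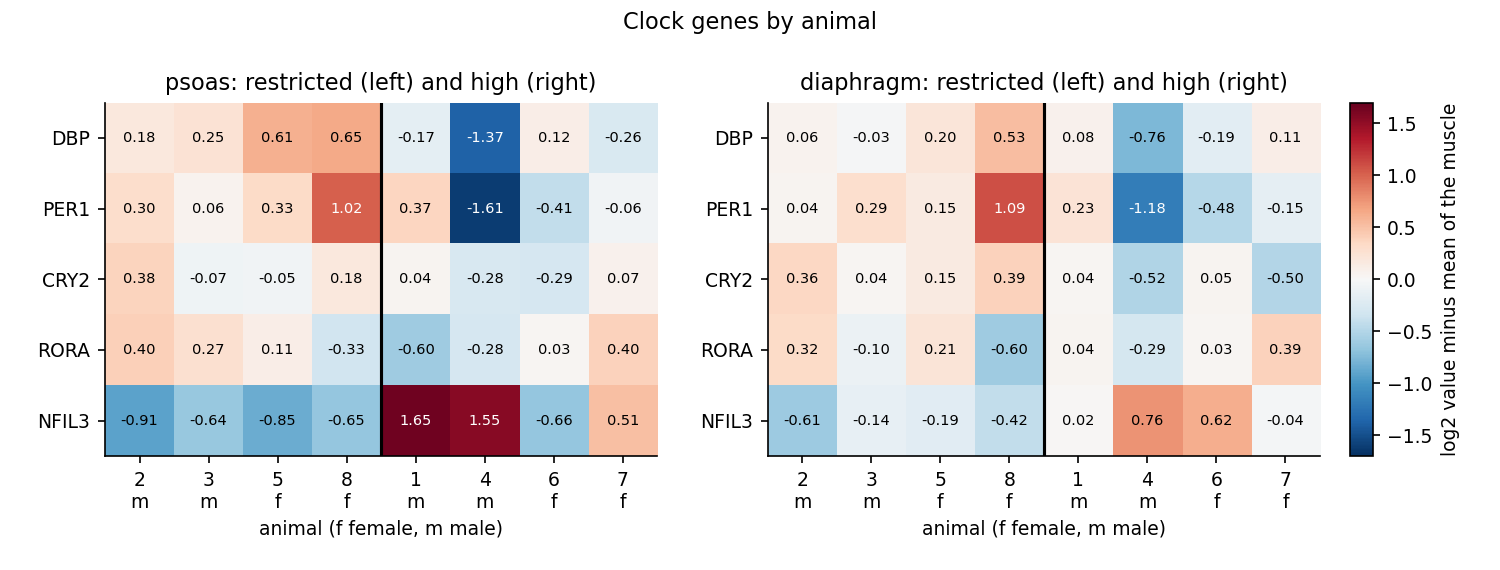
Log2 value minus the mean of the muscle (colour and printed number) for DBP, PER1, CRY2, RORA and NFIL3 in each animal, with psoas on the left, diaphragm on the right, and restricted animals left of the line in each panel. Animal 4 is at -1.61 for PER1 in psoas and -1.18 in diaphragm, and animal 8 at 1.02 and 1.09.

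The genes most like each clock gene were ranked by Pearson r over the 16 arrays after the mean of each muscle was subtracted, among 4570 other tested genes. The arrays share animals in pairs, so these are descriptions. For DBP the nearest were RIPOR2 (r = 0.925), CLEC1A (0.892), PGM3 (0.890), PER1 (0.886) and RPUSD1 (0.883). For PER1 they were DBP (0.886), PGM3 (0.870), ANGPT1 (0.864), IST1 (0.842) and N4BP2L2 (0.838), so that DBP was the gene most like PER1 and PER1 the 4th most like DBP. RIPOR2 averaged 8.28 in restricted and 7.19 in high-fed psoas, and 8.16 in restricted and 7.36 in high-fed diaphragm. PGM3, an enzyme of amino sugar synthesis, averaged 7.07 in restricted and 6.41 in high-fed psoas, and 6.45 in restricted and 5.94 in high-fed diaphragm.

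The neighbours of CRY2 and RORA were others. For CRY2 they were PBLD (0.777), PRPF38B (0.770), RPAP3 (0.769), TBC1D22A (0.766) and BTBD9 (0.753), and no gene reached an r of 0.8. For RORA they were CST6 (0.910), KLF10 (0.850), LMOD3 (0.825), MTF2 (0.803) and MYOZ1 (0.799), of which LMOD3 and MYOZ1 encode proteins of the sarcomere. KLF10, a clock-controlled transcription factor in mice, averaged 9.48 in restricted and 9.43 in high-fed psoas, and 9.28 in restricted and 9.44 in high-fed diaphragm.

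Genes that modify clock proteins or lie downstream were tested as lists. Of 9 tested genes of kinases, phosphatases and ubiquitin addition or removal that act on clock proteins, 2 were called between muscles. This was in the fit of 16 arrays, which called 27% of all tested probe sets. With the animal as a block, which called 33.5%, the same 2 were called. PPP1CC, a catalytic subunit of protein phosphatase 1, was lower in psoas (-0.26 ± 0.07, limma adjusted p = 0.0145), and CSNK2B, the regulatory subunit of casein kinase 2, was higher in psoas (0.21 ± 0.06, limma adjusted p = 0.0287). Of 16 tested clock-controlled output genes, 1 was called between muscles. That was KLF15, a transcription factor of amino acid and lipid use that also responds to glucocorticoids, at 0.48 ± 0.15 (limma adjusted p = 0.0318). KLF15 was also the one called among 11 tested glucocorticoid response genes. In the blocked fit, 7 of these 16 output genes were called, 5 of them higher in psoas. Added to KLF15 were MYOD1 (adjusted p = 0.0406 in limma with the block), UCP3 (0.0438), NAMPT (0.0261) and FKBP5 (0.0489), all higher in psoas, and FBXO32 (0.0136) and WEE1 (0.0490), both lower in psoas. FKBP5, a chaperone partner of the glucocorticoid receptor, made 2 of the 11 glucocorticoid response genes called with the block. Another tested probe set of FKBP5 was not called, at 0.31 (adjusted p = 0.129 in limma with the block). Of 12 tested immediate early genes, 1 was called, CREM, a cAMP-responsive factor, at 0.52 ± 0.13 (limma adjusted p = 0.0116), and 1 with the block. Other tested probe sets of CREM had 0.36 (adjusted p = 0.0436 in limma with the block) and 0.03 (0.887).

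None of these lists had a gene called for feeding. The smallest adjusted p in them was that of CREM over the animal means, at -0.45 ± 0.14 (limma adjusted p = 0.308). In diaphragm, 11 of 12 tested immediate early genes had a positive restricted minus high difference, with a median of 0.95, against 47% of all tested probe sets with a positive difference and a median of -0.04 over all tested genes. The 3 with the smallest p were ATF3 (0.91 ± 0.23), FOS (3.26 ± 0.88) and JUN (0.91 ± 0.25), each with a limma adjusted p of 0.477, and 6 of the 12 had an unadjusted limma p under 0.05. The mean log2 level of the 12 genes lay between 7.26 and 8.20 on restricted diaphragm arrays and between 6.16 and 7.48 on high-fed ones. The 3 lowest, 6.16, 6.33 and 6.57, were high-fed animals 4, 6 and 7, all of the lower actin level, while restricted animal 8 of that level had 7.83 and high-fed animal 1 of the higher level 7.48. The part of the actin difference in these values was not tested. In psoas it lay between 6.79 and 8.20 in restricted animals and between 6.93 and 8.24 in high-fed animals, and the median difference of the list was 0.11. The feeding difference in psoas minus that in diaphragm was -2.37 ± 0.48 for BTG2, an antiproliferative early gene, and -2.69 ± 0.59 for FOS, with limma adjusted p of 0.712 and 0.761. Of 11 tested glucocorticoid response genes, 7 had a positive restricted minus high difference in diaphragm, with a median of 0.12. An unadjusted limma p under 0.05 was found there for 2 of them. These were DUSP1, a phosphatase induced by glucocorticoids and stress, at 1.16 ± 0.26 (limma adjusted p = 0.472), and GLUL at 0.50 ± 0.14 (limma adjusted p = 0.477). PER1 is induced by some of the same signals as these genes, and their part in its feeding difference was not tested. Among the output genes the smallest p in diaphragm was that of PPARGC1A, a coactivator of mitochondrial genes, at -0.66 ± 0.30 (limma adjusted p = 0.539). In psoas it was that of CIPC, a repressor of CLOCK, at -0.37 ± 0.16 (limma adjusted p = 0.441). Among the kinases, CSNK1D, which phosphorylates the Period proteins, had the smallest p over the animal means, at -0.28 ± 0.13 (limma adjusted p = 0.426).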

How the data were processed

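The values are log2 expression values that the authors deposited, 1 per probe set and array, made with GCRMA per the submitters' processing notes; joint processing of all arrays is not stated in the notes. The method equalises the distributions of arrays processed together and compresses values near the floor. Median log2 values per array lay between 3.56 and 3.62, and the number of arrays limits the precision. The 4 genes, the gene lists and the tests were chosen with earlier results of these data known. Gene names came from the platform annotation.

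After 124 control probe sets were left out, probe sets at or above a log2 value of 4 on at least 4 of 16 arrays were tested in limma 3.58.1 (lmFit, eBayes; R 4.3.3). P-values were adjusted by Benjamini-Hochberg over all 11467 tested probe sets, and a call means an adjusted p under 0.05. Muscles were compared on 16 arrays, adjusting for sex and feeding level, and feeding level on 8 animals, as means of both arrays or within a muscle, with sex as covariate. The interaction used each animal's psoas minus diaphragm difference. Correlations used SciPy 1.17.1 and all pairings of 8 animals. The scripts were tested on simulated data.

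The labels' animal numbers pair the arrays: after removal of fitted effects, both arrays of an animal correlated at 0.0724 to 0.257 over probe sets, positive in all 8 animals. The probe set of highest mean stood for a gene with several. Named were all probe sets of the 4 genes, all genes of the core loop and output lists on the array, those of the other lists that were called or, where none was, up to 3 with the smallest p, and the 5 genes most like each of the 4. Of uncalled genes outside the clock lists, values are given for part.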

Additional observations from a re-analysis of the deposited data

Results flagged for a closer look

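Single samples were looked at with Dixon's test in 42 groups of clock gene values, of which chance alone marks about 1 in 20, and 3 samples stood apart. DBP in psoas of high-fed male animal 4 was 6.21, well below the other 7 psoas values of DBP. BHLHE40 through its brighter probe set was 5.25 in psoas of high-fed male animal 1, below the other 7 psoas values. BHLHE40 through its dimmer probe set was 4.14 in diaphragm of the same animal 1, above the other 3 high-fed diaphragm values, all of them below 4.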

How the results depend on the processing

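For the 4 genes in the 6 comparisons, 319 of 340 alternative values kept their direction and their side of the threshold, 18 changed sign and 3 became called, these being DBP, PER1 and RORA between muscles with the animal as a replicate block. The block changed no other call of the 4 genes. The counts of called probe sets for feeding were 0 as reported, 1 without a filter and 2 without covariates in diaphragm, and 2 without a filter in psoas. When 1 animal at a time was left out they lay between 0 and 1 over the animal means, 0 and 2 in diaphragm and 0 and 1 in psoas. Between the sexes 21 became 39 with the animal as a random replicate block, and 13 to 23 when 1 animal was left out. With the actin 3′ minus 5′ difference as a covariate, 3 small values changed sign, RORA over the animal means to -0.0046, PER1 in the test of muscle and feeding to -0.15 and CRY2 between the sexes to -0.0054. When 1 animal was left out, CRY2 between muscles lay between -0.0318 and 0.0989, RORA for feeding between -0.0700 and 0.285 over the animal means and between -0.23 and 0.15 in diaphragm, PER1 in the test of muscle and feeding between -0.0655 and 0.164, CRY2 between the sexes between -0.0893 and 0.0852, and RORA between the sexes between -0.10 and 0.27. Of 176 alternative values of single correlations, 144 kept sign and side, 18 changed sign, 11 were lost and 3 became called. The number of pairs of genes that passed was 1, was 0 without the 2 animals farthest from the median, and lay between 0 and 2 when 1 animal was left out. It was 0 without animal 2, 4, 5, 6 or 8, where r of DBP and PER1 in diaphragm still lay between 0.880 and 0.946, and fewer animals leave fewer pairings. It was 2 without animal 1. The correlation of DBP between muscles was also lost without animal 4 (r = 0.556) or 8 (r = 0.857) and after subtraction of sex and feeding effects (r = 0.725), and that of PER1 without the 2 farthest animals (adjusted p = 0.0861). Sign changes after subtraction were DBP and RORA to -0.143 and PER1 and RORA to -0.322, both in psoas. Without the 2 farthest animals they were, in psoas, DBP and CRY2 to -0.148, PER1 and RORA to -0.258 and CRY2 and RORA to -0.027, and, in diaphragm, DBP and CRY2 to -0.090. When 1 animal was left out, r in psoas lay between -0.078 and 0.441 for DBP and RORA, -0.479 and 0.265 for PER1 and RORA, and -0.087 and 0.416 for CRY2 and RORA. In diaphragm it lay between -0.557 and 0.795 for DBP and RORA, -0.777 and 0.529 for PER1 and RORA, and -0.521 and 0.285 for CRY2 and RORA. Except where stated, the cause was not tested. ARNTL, the dimmer probe sets of PER1 and BHLHE40, and NFIL3 in restricted psoas lay near or below a log2 value of 4, where GCRMA compresses differences.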
